A study of Mus musculus with 29 samples.

Results

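Galectins are lectins that bind β-galactoside sugars on glycoproteins, and 6 genes of this system were followed through mouse atria: Lgals1, Lgals3, Lgals4, Lgals8, Lgals9 and Lgals3bp. They are 6 of the 55292 gene names in the deposited count files, and all 6 passed the low-count filter in both experiments. The genes were taken by name, and 1 of them, Lgals3, was chosen by its measured level, which was lower in NaV1.5 atria. Its genotype values are therefore given as a description, with no test. The other 5 are tested in every comparison.

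The study sequenced poly-A RNA from the atria of male mice, in 29 libraries of 6 groups. Diets began when mice were 5 weeks old, and the high-fat diet (HFD) lasted 4 weeks. In the diet experiment, NaV1.5 transgenic mice gave 5 libraries on HFD (NaV1.5_HFD) and 4 on regular diet, RD (NaV1.5_RD). Control mice, labelled Ctrls, gave 4 libraries on HFD (Ctrl_HFD) and 4 on RD (Ctrl_RD). In the second experiment, all mice carried the NaV1.5 transgene and ate HFD. They received nicotinamide riboside (NR), a vitamin B3 form from which cells make NAD, in 7 libraries (HFD&NR), or vehicle in 5 (HFD vehicle). The promoter and species of the transgene, the strain of the mice and the dose of NR are not given in the labels. Whether every library is a different mouse is not stated either. The p-values thus describe spread among samples, which may be technical.

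Total counts ranged from 13189995 to 33061018 per library. An added annotation record named flag had 0 counts in all 29, and the genotype is taken from the labels. The summed CPM (counts scaled by library size) of 10 atrial cardiomyocyte markers was 66720 to 86400 across the diet libraries, with none of the 10 at 0 in any group. The 5 HFD&NR libraries labelled batch 2 stood apart, at 29690 to 36330, against 73080 to 77750 in the HFD&NR libraries of batch 3 and 65170 to 81510 in HFD vehicle. Their summed epicardial and mesothelial markers were 2111 to 3109 CPM, against 459 to 636 in HFD vehicle. All HFD vehicle libraries are batch 3, so the batch 2 libraries set only the spread in the NR test. Ctrl_HFD replicate 4 is likewise the only batch 2 library of its experiment, and it carries no weight in the fitted differences.

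Galectins lack a signal peptide. They act in the cytosol and, after leaving the cell by a route that avoids the Golgi, on glycans of the cell surface and matrix. By structure they fall into the prototype galectin-1 (Lgals1), which has a single sugar-binding domain and pairs with itself, the chimeric galectin-3 (Lgals3), whose long N-terminal tail lets it form lattices, and the tandem-repeat galectins 4, 8 and 9, in which a linker joins a pair of such domains. Lgals3bp encodes a secreted glycoprotein that binds galectin-3 and is not itself a galectin. In the heart, galectin-3 is best known as a product of macrophages and as a blood marker of fibrosis and heart failure, and galectin-9 as a lectin induced by interferon.

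The promoters of 3 members are printed because the members' values below turn on Lgals3 and on whether Lgals9 and Lgals3bp move with interferon-response genes. They are RefSeq sequences of build GRCm38.p6, read 5′ to 3′ on the gene's strand from 250 bases before to 50 bases after the annotated start; 5 of the 6 members had an entry. The Lgals3 stretch is chr14:47373610-47373909 on the plus strand, with the GC box GGGCGG (either strand) in capitals. The Lgals9 stretch is chr11:78984875-78985174 on the minus strand, with AANNGAAA (either strand), the core bound by interferon regulatory factors (IRF), in capitals. The Lgals3bp stretch is chr11:118401910-118402209 on the minus strand, with the same core in capitals.
Lgals3: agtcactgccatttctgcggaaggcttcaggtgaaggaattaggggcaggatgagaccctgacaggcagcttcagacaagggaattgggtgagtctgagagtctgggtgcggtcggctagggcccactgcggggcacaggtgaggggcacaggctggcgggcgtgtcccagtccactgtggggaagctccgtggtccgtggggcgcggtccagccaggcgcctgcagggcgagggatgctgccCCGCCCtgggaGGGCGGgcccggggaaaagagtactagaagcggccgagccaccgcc
Lgals9: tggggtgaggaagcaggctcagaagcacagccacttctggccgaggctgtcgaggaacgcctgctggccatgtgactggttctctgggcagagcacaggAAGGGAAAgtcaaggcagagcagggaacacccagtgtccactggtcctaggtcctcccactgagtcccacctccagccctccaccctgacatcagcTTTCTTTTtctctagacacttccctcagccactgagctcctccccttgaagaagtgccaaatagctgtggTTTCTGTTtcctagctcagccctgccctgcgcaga
Lgals3bp: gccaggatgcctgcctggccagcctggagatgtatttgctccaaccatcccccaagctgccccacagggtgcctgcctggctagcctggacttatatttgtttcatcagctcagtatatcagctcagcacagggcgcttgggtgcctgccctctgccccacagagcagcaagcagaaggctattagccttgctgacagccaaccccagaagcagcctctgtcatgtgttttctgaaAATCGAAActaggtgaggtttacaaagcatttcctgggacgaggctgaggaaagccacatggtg

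The Lgals3 stretch held 2 GC boxes, at -7 on the minus strand and 5 on the plus strand, counting from the annotated start. That RefSeq start lies inside the Lgals3 span used for counting (chr14:47367751-47386160), not at its first base. A GC box was present at least once in 35.7% of the 32851 promoters searched and at least 2 times in 19.5% of them. Lgals9 held the IRF core 3 times, at -151 on the plus strand and at -55 and 16 on the minus strand. The core was present at least once in 23.9% of promoters and at least 3 times in 1.12% of them. Lgals3bp held it once, at -14, and the stretches of Lgals3, Lgals4 and Lgals8 did not hold it. The AP-1 motif TGANTCA was in none of the 5 stretches and in 7.81% of promoters. Both strands were searched for every motif, and the motifs were chosen after the values were seen.

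On the per-length scale (RPKM, the CPM divided by the exon length in kilobases), Lgals1 was the most abundant member in every group. Its mean was 324 ± 35.2 RPKM in NaV1.5_HFD, 287 ± 62.1 in NaV1.5_RD, 276 ± 45.1 in Ctrl_HFD and 247 ± 38.2 in Ctrl_RD (SD, n = 5, 4, 4 and 4). That placed it between rank 139 and rank 171 of the 16168 genes kept. Lgals3 came next, at 49.7 ± 6.02 RPKM in NaV1.5_HFD, 64.3 ± 8.90 in NaV1.5_RD, 91.8 ± 20.7 in Ctrl_HFD and 93.5 ± 11.3 in Ctrl_RD. Lgals3bp averaged 25.4 to 34.1 RPKM over the 4 diet groups, Lgals4 23.4 to 27.0 and Lgals9 23.9 to 26.5. Lgals8 was lowest at 10.2 to 11.3 RPKM. In the NR experiment Lgals1 was again highest, at 341 ± 93.7 RPKM in HFD&NR and 195 ± 29.4 in HFD vehicle (n = 7 and 5).

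**Figure D1:**
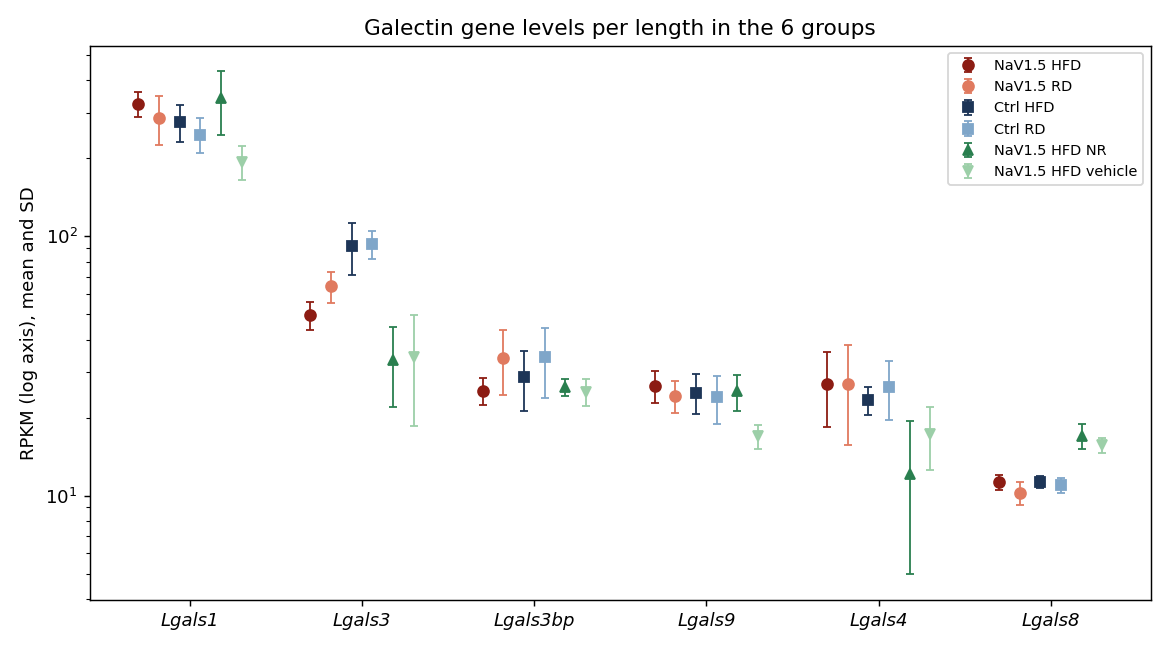
Mean level of each galectin gene per exon length (RPKM, log axis) in the 6 groups, with SD as bars. Lgals1 stands above the other 5 in every group, from 195 to 341 RPKM, and Lgals8 is lowest in the 4 diet groups, at 10.2 to 11.3 RPKM.

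Members differed in how much they scattered among libraries of a group. Within groups of the 16 batch 1 libraries, the SD of log2 CPM was 0.11 for Lgals8, larger than that of 10.4% of the genes kept, and 0.51 for Lgals4, larger than that of 88.1% of them. The median over all genes was 0.21. Lgals3 had a within-group SD of 0.20 in the diet experiment and 0.59 in the NR experiment, where 93.4% of genes had a smaller SD. The 2 experiments were scaled separately and share no batch other than batch 2, which holds 1 Ctrl_HFD and 5 HFD&NR libraries, so levels are not compared across them.

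Lgals3 encodes galectin-3 and lies at chr14:47367751-47386160 on the plus strand (GRCm38). On HFD it had 109, 88.8, 97.9, 87.4 and 79.2 CPM in the NaV1.5 libraries, against 161, 127, 174 and 220 CPM in the Ctrl libraries. All 5 NaV1.5_HFD libraries were below all 4 Ctrl_HFD libraries, as held for 1.66% of all genes. On RD it had 134, 119, 129 and 96.4 CPM in the NaV1.5 libraries, against 143, 177, 184 and 190 CPM in the Ctrl libraries. Here too all NaV1.5 libraries were below all Ctrl libraries, as held for 1.68% of all genes. The fitted level in NaV1.5 atria was 0.6 times that in Ctrl atria on HFD (log2 difference -0.74, SE 0.13) and 0.688 times on RD (-0.54, SE 0.13). These are the values by which the gene was picked. Leaving out each library in turn kept the HFD difference between -0.86 and -0.65 and the RD difference between -0.63 and -0.45.

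**Figure D2:**
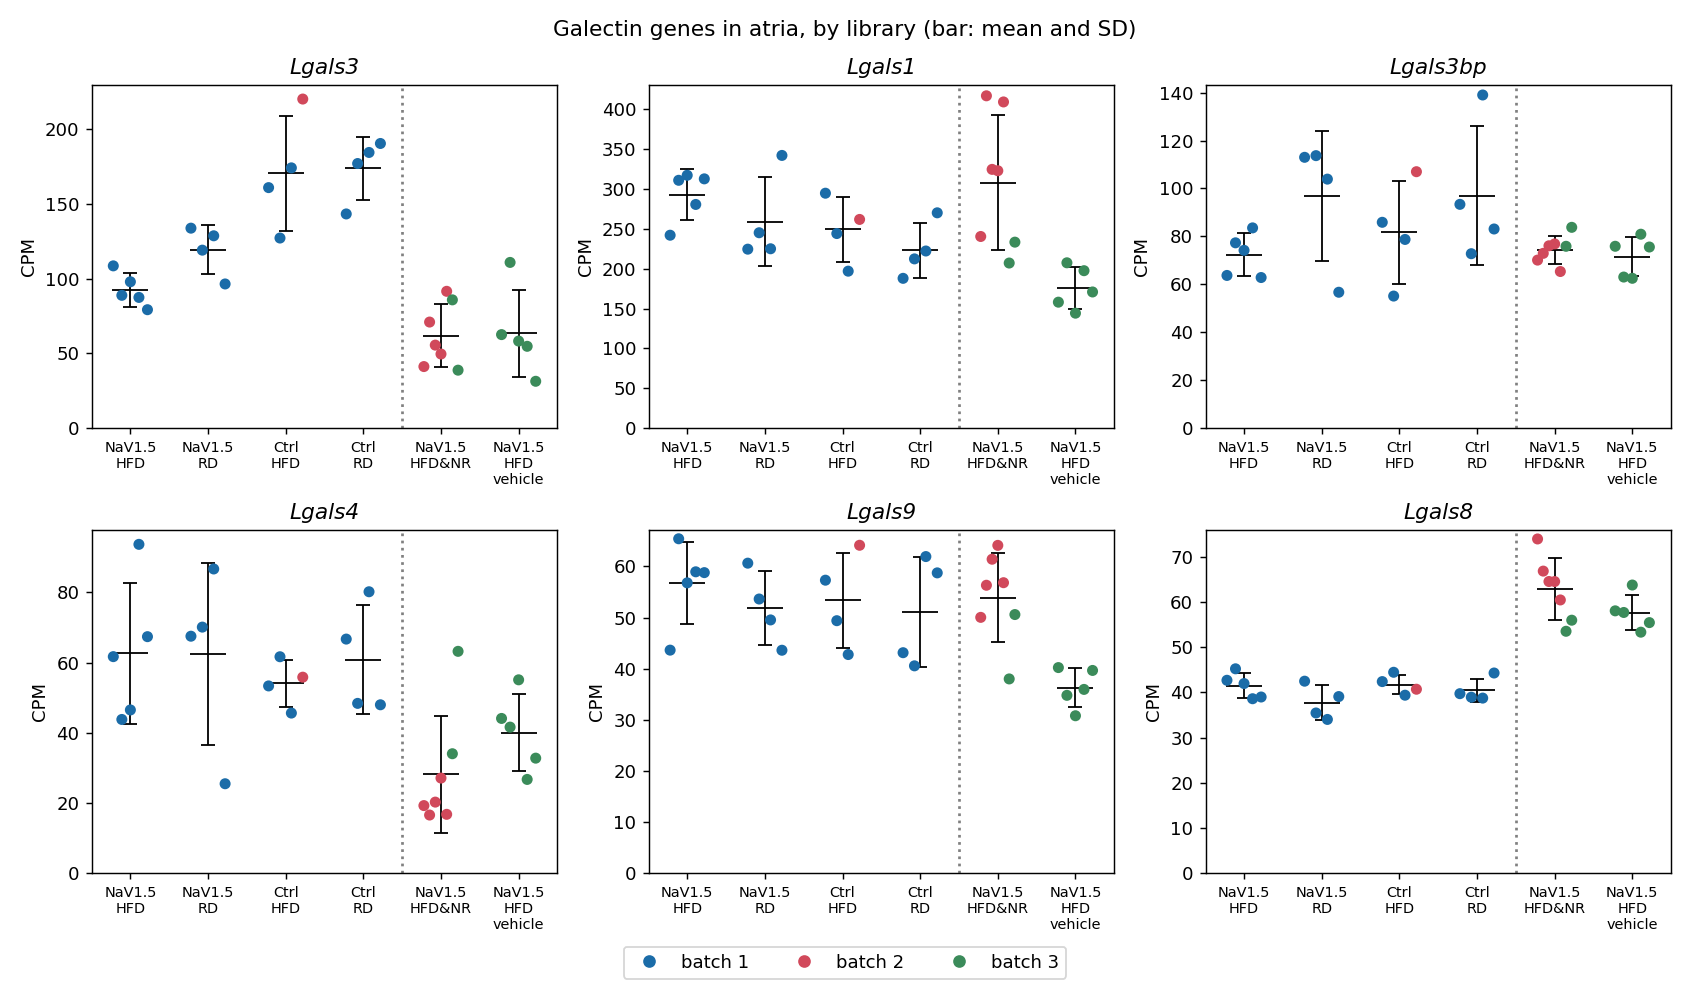
CPM of the 6 genes in every library (points, coloured by labelled batch) with group mean and SD; the dotted line separates the diet and NR experiments, which were scaled separately. Lgals3 is at most 134 CPM in the 9 NaV1.5 libraries of the diet experiment and at least 127 CPM in the 8 Ctrl libraries, and the 2 genotypes do not overlap on either diet.

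The Lgals3 group means ran, from low to high, 92.4 ± 11.2 CPM in NaV1.5_HFD, 119 ± 16.5 in NaV1.5_RD, 170.5 ± 38.4 in Ctrl_HFD and 174 ± 21.04 in Ctrl_RD. The 2 Ctrl groups differed by 3.2 CPM, less than their spread. The Ctrl_HFD mean includes replicate 4 of batch 2 (220 CPM), and without it was 154 ± 24.2 CPM (n = 3). The step between NaV1.5_RD and Ctrl_HFD was 51.1 CPM and that between NaV1.5_HFD and NaV1.5_RD 27.1 CPM, each beyond the larger SD of the pair. The first of these steps crosses both genotype and diet. No other member had neighbouring groups in this experiment that were further apart than the larger SD. Lgals3 was picked for its lower level in NaV1.5 atria, so its standing apart from the other members here is a description only.

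Macrophages are the cells best known for galectin-3. Of 20 macrophage markers, 19 were above 0 in NaV1.5 against Ctrl on HFD (median log2 difference 0.30, against 0.01 over all genes) and 18 on RD (median 0.17), and none passed the threshold in either. Their summed level was 1074 to 1346 CPM in NaV1.5_HFD, against 941 to 1228 in Ctrl_HFD, and 1035 to 1332 in NaV1.5_RD, against 849 to 1274 in Ctrl_RD. In bulk atria, fewer cells of a type and less RNA per cell cannot be told apart. Within groups, Lgals3 and the macrophage sum had a Pearson r of 0.19 over the 16 batch 1 libraries and -0.405 over the 12 of the NR experiment.

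The genes most like Lgals3 across the 16 batch 1 libraries, among 12718 genes ranked by Pearson r of log2 CPM, were Cdh13 (0.89), Pttg1ip (0.89), Lsp1 (0.86), Prpf4 (0.85) and Mrvi1 (0.85). Within groups the r was 0.66 for Cdh13, 0.60 for Pttg1ip and 0.69 for Prpf4, but 0.19 for Lsp1 and 0.22 for Mrvi1. In the NR experiment the within-group r over 12 libraries was 0.77 for Lsp1 and 0.23 for Cdh13, but -0.39 for Pttg1ip, -0.40 for Prpf4 and -0.53 for Mrvi1, so 3 of the 5 ran the other way. All points share library depth and, before the within-group step, the genotype difference by which Lgals3 was chosen.

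None of the other 5 members passed the threshold (adjusted p under 0.05, edgeR quasi-likelihood test) between genotypes. On HFD it was 0 of 5, with 0 at an unadjusted p under 0.05 and 0 with DESeq2, beside 0.0866% of all 16168 genes. On RD the counts were also 0, 0 and 0, beside 0.0124% of all genes. The median of all 6 members was 0.08 on HFD and 0.01 on RD on the log2 scale, against 0.01 on each diet over all genes.

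Lgals1, the prototype galectin, which is made by fibroblasts, endothelium and many other cells, lies at chr15:78926725-78930465 on the plus strand. On HFD it had 242, 311, 317, 281 and 313 CPM in NaV1.5 atria, against 295, 244, 197 and 262 CPM in Ctrl atria. On RD it had 225, 245, 225 and 342 CPM in NaV1.5 atria, against 188, 212, 222 and 270 CPM in Ctrl atria. The groups overlapped on both diets. The log2 difference was 0.25 on HFD (SE 0.15, 95% interval -0.07 to 0.58, edgeR adjusted p = 0.766) and 0.22 on RD (SE 0.15, interval -0.10 to 0.53, adjusted p = 0.865). Leaving out each library gave 0.11 to 0.41 on HFD and 0.05 to 0.32 on RD, where the 0.05 was without NaV1.5_RD replicate 4. With the replicate number as a block the RD value was 0.02. That run also lacked NaV1.5_RD replicate 4 and Ctrl_RD replicate 1, whose labels give no number.

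Lgals3bp, the secreted binding partner of galectin-3, lies at chr11:118392751-118402092 on the minus strand. On HFD it had 63.7, 77.3, 74.2, 83.6 and 62.9 CPM in NaV1.5 atria, against 85.9, 55.1, 78.7 and 107 CPM in Ctrl atria. On RD it had 113, 114, 104 and 56.7 CPM in NaV1.5 atria, against 93.4, 72.8, 139 and 83.1 CPM in Ctrl atria. The groups overlapped on both diets. The log2 difference was -0.02 on HFD (95% interval -0.51 to 0.47) and -0.002 on RD (-0.48 to 0.47).

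Among the tandem-repeat galectins, Lgals4, best known from gut epithelium, lies at chr7:28833854-28841708 on the plus strand. It ranged from 43.8 to 93.7 CPM in NaV1.5_HFD, against 45.6 to 61.6 in Ctrl_HFD, and from 25.5 to 86.6 in NaV1.5_RD, against 48.0 to 80.2 in Ctrl_RD. Its log2 differences between genotypes, 0.22 on HFD and 0.04 on RD, had the widest intervals of the 6 members, -0.49 to 0.94 and -0.65 to 0.73. The 8 gut and squamous epithelium markers summed to at most 23.0 CPM in any library of the 6 groups. Lgals6, a near copy of Lgals4 carried by some mouse strains, is not among the gene names counted, and the strain is not given in the labels, so Lgals4 counts are uncertain in that respect.

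Lgals9, which binds the T cell receptor TIM-3 (Havcr2), lies at chr11:78962974-78984946 on the minus strand. It ranged from 43.6 to 65.4 CPM in NaV1.5_HFD, against 42.8 to 64.1 in Ctrl_HFD, and from 43.6 to 60.6 in NaV1.5_RD, against 40.6 to 61.9 in Ctrl_RD, so the groups nearly coincided. The log2 difference was 0.19 on HFD (95% interval -0.13 to 0.50) and 0.02 on RD (-0.28 to 0.33). Lgals8, which marks damaged endosomes and lysosomes for autophagy, lies at chr13:12439415-12464944 on the minus strand. It was the steadiest member, at 38.6 to 45.2 CPM in NaV1.5_HFD, against 39.4 to 44.4 in Ctrl_HFD, and 34.0 to 42.5 in NaV1.5_RD, against 38.7 to 44.3 in Ctrl_RD. Its 95% intervals were the narrowest, -0.20 to 0.16 on HFD and -0.28 to 0.08 on RD. Its exons share 155 bases with Heatr1 on the opposite strand. Counting ignored strand and dropped pairs lying over more than 1 gene, so its level may miss reads there.

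**Figure D3:**
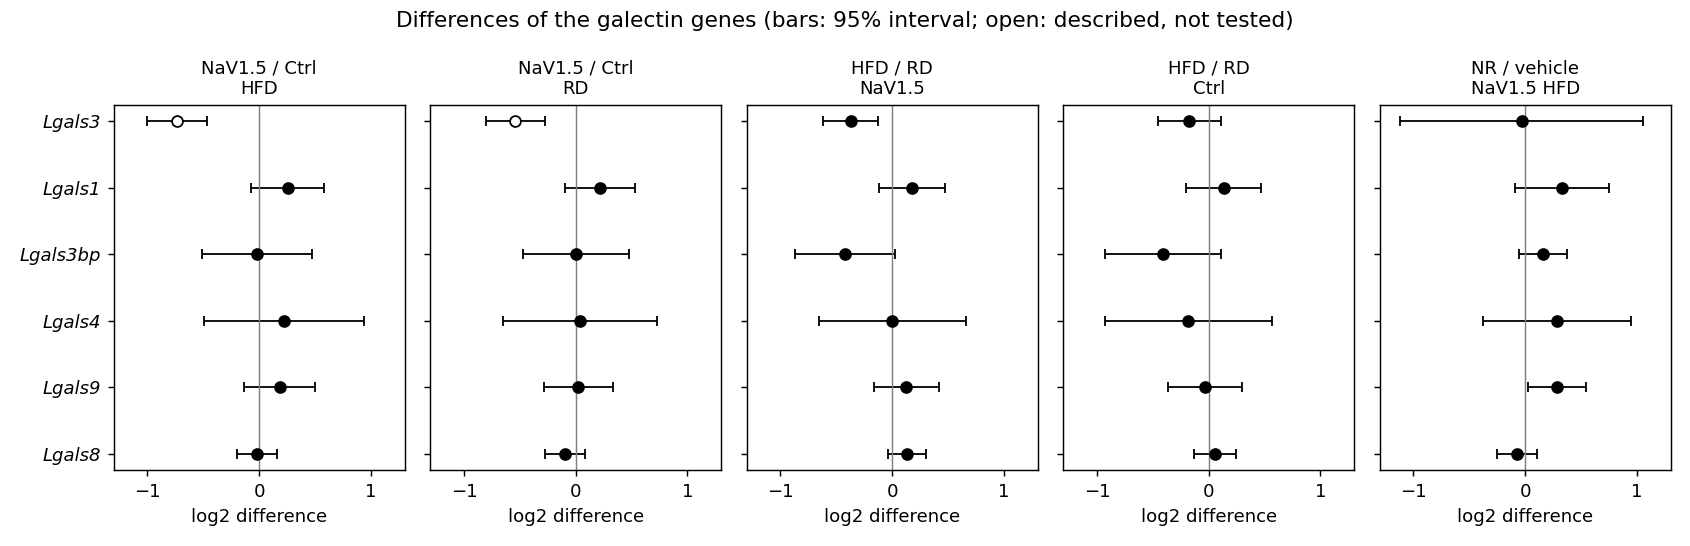
Log2 differences of the 6 genes in 5 comparisons with 95% intervals; open points mark the genotype values of Lgals3, which are a description. Lgals3 lies at -0.74 on HFD and -0.54 on RD, while the intervals of the other 5 genes span 0 in both genotype comparisons.

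In NaV1.5 atria, HFD against RD gave 0 of 6 members past the threshold, beside 1.13% of all genes, and DESeq2 called 0. An unadjusted p under 0.05 was reached by 1 of 6 members, beside 3063 of the 16168 genes tested, a similar share. That 1 member was Lgals3, with the levels given above for NaV1.5_HFD and NaV1.5_RD, which overlapped between 96.4 and 109 CPM. Its log2 difference was -0.37 (SE 0.12, 95% interval -0.62 to -0.12, edgeR adjusted p = 0.104). NaV1.5_RD replicate 4 decides this call. Without it the difference was -0.46 and the adjusted p 0.0245, while the count over all genes was 1138, against 182 with it. The same library had the lowest Lgals4 (25.5 CPM) and Lgals3bp (56.7 CPM) and the highest Lgals1 (342 CPM) of its group. Both diet comparisons of Lgals3 use libraries by which the gene was picked, so their p-values may not be independent of that choice.

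Lgals3bp had a log2 difference of -0.42 with HFD in NaV1.5 atria (SE 0.21, edgeR adjusted p = 0.295) and -0.41 in Ctrl atria (SE 0.24, adjusted p = 0.653). Lgals1 had 0.18 in NaV1.5 atria (adjusted p = 0.529) and 0.14 in Ctrl atria (adjusted p = 0.827). Lgals8 had 0.14 in NaV1.5 atria (95% interval -0.03 to 0.30) and 0.06 in Ctrl atria (-0.13 to 0.25). In Ctrl atria, HFD against RD gave 0 of 6 members past the threshold with edgeR, 0 at an unadjusted p under 0.05 and 0 with DESeq2, beside 0% of all genes. Lgals3 had -0.17 there (SE 0.14, adjusted p = 0.727). The difference between the 2 diet effects was also called for 0 of the 5 members tested (0 at an unadjusted p under 0.05, 0 with DESeq2), beside 0% of all genes. For Lgals3 it was -0.20 (SE 0.18), given without a test.

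With NR against vehicle, 0 of 6 members passed the threshold, beside 0.425% of 16482 genes, and DESeq2 called 0. An unadjusted p under 0.05 was reached by 1 of 6 members, beside 1829 of the 16482 genes. The fit compares the 2 HFD&NR libraries of batch 3 with the 5 HFD vehicle libraries. That 1 member was Lgals9. It had 38.0 and 50.6 CPM in the HFD&NR libraries of batch 3, against 40.2, 34.8, 30.8, 35.9 and 39.7 CPM in HFD vehicle. HFD&NR replicate 7 was above all 5 HFD vehicle libraries and replicate 6 was within their range. The log2 difference was 0.29 (SE 0.12, 95% interval 0.03 to 0.55, edgeR adjusted p = 0.392). Without HFD&NR replicate 7 it was 0.08.

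Lgals1 had 207 and 233 CPM in the HFD&NR libraries of batch 3, against 158, 208, 144, 198 and 171 CPM in HFD vehicle. The groups touched at 207 CPM, and the log2 difference was 0.33 (SE 0.19, edgeR adjusted p = 0.601). Lgals3 had 85.8 and 38.8 CPM in the HFD&NR libraries of batch 3, against 62.6, 111, 58.2, 54.7 and 31.4 CPM in HFD vehicle. Libraries of each group ran from low to high, and the log2 difference was -0.03 with a 95% interval of -1.12 to 1.06. It was -0.71 without HFD&NR replicate 6 and 0.44 without replicate 7, so it has no settled direction. Lgals4 had 34.0 and 63.2 CPM in these HFD&NR libraries, against 26.7 to 55.1 in HFD vehicle. Its difference was 0.28, with -0.22 without HFD&NR replicate 7 and 0.66 without replicate 6.

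The HFD&NR libraries of batch 2 can also be set against HFD vehicle, but there treatment and batch cannot be told apart. Lgals4 was 16.6 to 27.1 CPM in those 5, against 26.7 to 55.1 in HFD vehicle. Lgals1 was 241 to 417 CPM, against 144 to 208, and Lgals9 50.03 to 64.1 CPM, against 30.8 to 40.2. These 2 of 6 members did not overlap, as was the case for 45.6% of all genes. Lgals3 was 41.2 to 91.5 CPM, against 31.4 to 111, and Lgals3bp 65.4 to 76.9 CPM, against 62.5 to 80.9. Lgals8 was 60.4 to 73.9 CPM, against 53.3 to 63.7. The summed macrophage markers were 1626 to 1812 CPM in these 5, against 973 to 1154 in HFD vehicle, and the summed endothelial markers 2851 to 2945, against 1555 to 1782. The part of these cell types and of the low atrial cardiomyocyte sum in the galectin values was not tested.

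Across libraries, Lgals1 and Lgals9 varied with several marker sums. In all, 12 relations were computed, of 6 members with the summed CPM of 20 macrophage markers and of 24 interferon-response genes. They were taken on the log2 scale over the 16 batch 1 libraries. In a 2-sided permutation test with 100000 resamples, 4 had a Pearson p under 0.05 after Benjamini-Hochberg adjustment over the 12. Libraries were shuffled without regard to group, so the p-values mix differences between groups with variation inside them. The within-group r values were not tested. Lgals1 with the macrophage sum had r = 0.77 (p = 0.00058, adjusted p = 0.00696) and Spearman rho = 0.71 (p = 0.00289, adjusted p = 0.0347). Without the 2 libraries farthest from the median sum r was 0.74, and within groups it was 0.70. In the NR experiment the within-group r over 12 libraries was 0.00. Lgals1 with the interferon sum had r = 0.72 (p = 0.00194, adjusted p = 0.0116) and rho = 0.67 (p = 0.00644, adjusted p = 0.0386). It was 0.67 without the 2 farthest libraries, 0.65 within groups and -0.09 in the NR experiment. These relations are not particular to immune genes. Over the same libraries Lgals1 had r = 0.89 with the brown adipocyte sum (0.86 within groups) and 0.81 with the gut and squamous epithelium sum (0.78). It had 0.64 with the epicardial and mesothelial sum (0.76) and -0.71 with the white adipocyte sum (-0.76). These are descriptions. Ucp1 and Elovl3 were at 0 in all 4 Ctrl_RD libraries, where the brown adipocyte sum was 566 to 781 CPM. The gut and squamous sum ran only from 2.89 CPM (in Ctrl_RD) to 9.68 CPM (in NaV1.5_RD). Neither sum is read as an amount of that cell type.

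Lgals9 had r = 0.66 with the interferon sum (p = 0.00603, adjusted p = 0.0241), but rho = 0.54 (p = 0.0353) had an adjusted p of 0.106. Without the 2 farthest libraries r was 0.46, so the pooled relation leans on them. Within groups r was 0.68 over the 16 libraries and 0.75 over the 12 of the NR experiment. Of those 12, the 2 HFD&NR libraries of batch 3 had interferon sums as far apart as 480 and 730 CPM. The 0.75 is not particular to interferon genes. There Lgals9 also had a within-group r of 0.69 with the neutrophil and monocyte sum and 0.64 with the gut and squamous epithelium sum. Over the 16 libraries these 2 were 0.46 and 0.01. With the macrophage sum Lgals9 had r = 0.60 (p = 0.016, adjusted p = 0.0481) and rho = 0.59 (p = 0.0175, adjusted p = 0.0701), and -0.01 within groups of the NR experiment. Lgals3bp had r = -0.14 with the interferon sum (adjusted p = 0.663) and rho = -0.18 (adjusted p = 0.681). Within groups r was 0.25 and, in the NR experiment, 0.46. Whether the IRF cores of the Lgals9 and Lgals3bp promoters have a part in these values was not tested. Lgals3 had r = -0.445 with the macrophage sum (rho = -0.42) and 0.19 within groups. The pooled value mixes in the genotype difference by which the gene was chosen, so it is a description. The Lgals3 relations stayed among the 12 adjusted together. All these points share library depth and tissue make-up, whose part was not tested.

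**Figure D4:**
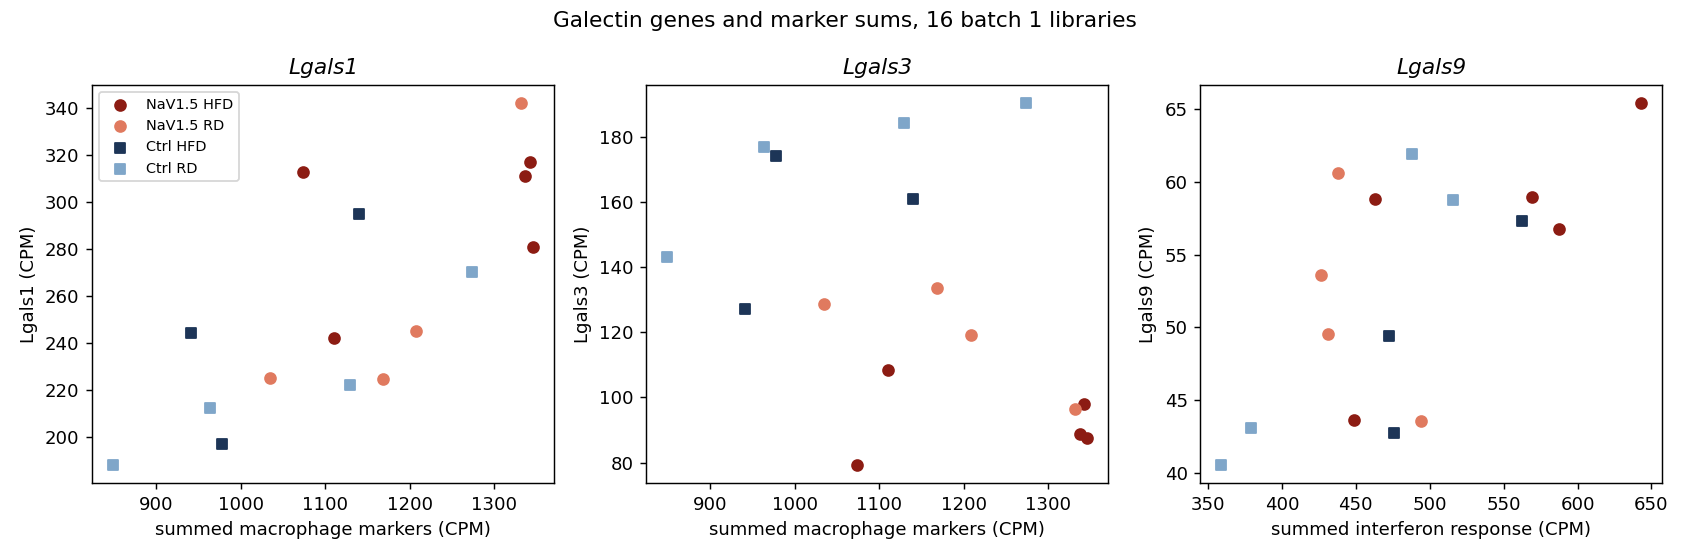
CPM of Lgals1, Lgals3 and Lgals9 against summed macrophage or interferon-response CPM, a point for each of the 16 batch 1 libraries, shaped by genotype and shaded by diet. Lgals1 is higher where the macrophage sum is higher (r = 0.77) and Lgals9 where the interferon sum is (r = 0.66). For Lgals3 r was -0.445, a description that mixes in the genotype difference by which it was chosen, and 0.19 within groups. The 4 highest macrophage sums are NaV1.5 libraries and the 4 lowest Ctrl libraries.

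The interferon-response genes themselves lay above 0 for 24 of 24 with HFD in NaV1.5 atria (median log2 difference 0.25), 21 of 24 with HFD in Ctrl atria (0.22) and 22 of 24 with NR (0.26), and 0 passed the threshold in any of the 3. Lgals9, beside them, had 0.13, -0.03 and 0.29 in the same comparisons. The NR differences set only the 2 HFD&NR libraries of batch 3 against HFD vehicle. The interferon sums of those 2 were 480 and 730 CPM, against 457 to 546 CPM in HFD vehicle. Thus 1 of the 2 lay within the HFD vehicle range. Markers of other cells also lay off 0. White adipocyte markers had a median of -2.50 with HFD in NaV1.5 atria (0 of 7 above 0). Of them 1 was called lower there, beside 1.13% of all genes called in either direction. The median was -1.47 with HFD in Ctrl atria (0 of 7) and 2.45 with NR (5 of 7). With NR their summed level overlapped, at 241 to 307 CPM in the 2 HFD&NR libraries of batch 3, against 209 to 345 in HFD vehicle. Erythroid markers had medians of 0.78 with HFD in NaV1.5 atria (6 of 6 above 0), -0.49 with HFD in Ctrl atria (0 of 6) and 0.23 with NR (7 of 7). In the same order, epicardial and mesothelial markers had 0.27 (12 of 12), 0.41 (12 of 12) and 0.36 (11 of 12). The part of these cell types in the interferon and galectin values was not tested. Of the 20 macrophage markers, 16 were above 0 with NR and 1 was called higher, beside 0.425% of all genes called in either direction. It was Folr2, a folate receptor of resident macrophages (log2 difference 0.75, edgeR adjusted p = 0.0355). This call too rests on the 2 HFD&NR libraries of batch 3.

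Among pairs of members, Lgals9 and Lgals3bp had a within-group r of 0.59 over the 16 batch 1 libraries and 0.68 over the 12 of the NR experiment. Lgals4 and Lgals3bp had 0.64 in the diet experiment and -0.16 in the NR experiment. The closest genes to Lgals1 were Crip1 (r = 0.96) and Mrpl41 (0.96), to Lgals4 Cdk6 (0.88) and Jag2 (0.87), to Lgals8 Aftph (0.91) and Usp47 (0.88), to Lgals9 Cfl1 (0.87) and Cdca3 (0.86), and to Lgals3bp Hydin (0.89) and Dlg5 (0.87). These are descriptions over 16 libraries, chosen as the highest of 12718. Of these 10, Aftph had the highest within-group r in the NR experiment (0.63).

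The other galectin genes were scarce, apart from Lgalsl. Lgalsl, a galectin-related gene, had 37.0 to 52.7 CPM in the diet experiment, while Lgals2 had at most 2.57 CPM and Lgals7 at most 5.02. Lgals12 reached 0.33 CPM and Grifin 0.12, and neither passed the low-count filter there. None of those tested passed the threshold in any comparison. Lgals2 had a log2 difference of 0.83 with HFD in Ctrl atria (edgeR adjusted p = 0.524) and Lgals7 0.91 with HFD in NaV1.5 atria (adjusted p = 0.159). Lgalsl had -0.38 with NR (adjusted p = 0.18).

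Of 26 genes for proteins that galectins bind, 1 passed the threshold in any of the 6 comparisons, in the diet comparison of NaV1.5 atria, where 1.13% of all genes passed. Itgb1, the β1 integrin chain, rose with HFD in NaV1.5 atria by a log2 difference of 0.33 (SE 0.08, edgeR adjusted p = 0.0479). The median of the 26 was 0.03 there, against -0.01 over all genes. Cd44, a hyaluronan receptor that galectins cross-link, had 0.76 in NaV1.5 against Ctrl on HFD (SE 0.17, adjusted p = 0.126) and 0.48 on RD (adjusted p = 0.636). Trem2, a macrophage receptor reported to bind galectin-3, had 0.39 on HFD (adjusted p = 0.51) and 0.36 on RD (adjusted p = 0.782), the opposite side of 0 from Lgals3.

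Galectin-3 is widely studied as a driver of fibrosis. Of 17 fibrosis genes measured, 16 were tested and 0 passed in any comparison. In NaV1.5 against Ctrl on HFD, where Lgals3 was lower, 14 of 16 were above 0 (median 0.26, against 0.01 over all genes), led by Postn, a matrix protein of activated fibroblasts (log2 difference 0.87, edgeR adjusted p = 0.215). On RD it was 13 of 16 (median 0.16). With HFD it was 5 of 16 in NaV1.5 atria (median -0.15), where the Lgals3 difference was also below 0, and 2 of 16 in Ctrl atria (median -0.31). With NR it was 11 of 16 (median 0.08). Other lists also lay off 0 between genotypes on HFD. Endothelial markers were above 0 for 10 of 11 (median 0.20) and T and B cell markers for 10 of 10 (0.44). Atrial cardiomyocyte markers were above 0 for 2 of 10 (-0.22), and epicardial and mesothelial markers for 2 of 12 (-0.19). Their part in the fibrosis and Lgals3 values was not tested. The 20 genes of N-glycan branching and poly-LacNAc synthesis, which build the sugars that galectins bind, and the 15 of the damaged-lysosome response, which galectins 3, 8 and 9 serve, also had 0 members past the threshold in every comparison.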

How the data were processed

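The deposited files hold raw counts (read pairs per gene name) from featureCounts 2.0.1, run without strand, per the file headers. That run skipped multi-mapping pairs and pairs shared by genes. FastQC 0.11.7, STAR 2.7.6a and build GRCm38 are named in the submitters' processing notes. A miRNeasy micro kit and poly-A selection were used, per the labels' protocols. No libraries were identical; the least different replicates had a chi-square of 6.90 per gene.

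Counts were tested with edgeR 4.0.16 in R 4.3.3 (quasi-likelihood, filterByExpr, TMM, group and batch as terms, 2-sided), in 1 fit for the diet libraries and 1 for the NR libraries, with Benjamini-Hochberg adjustment across every gene that passed the filter (threshold 0.05). The method was tested on simulated data without a batch effect, so that test does not cover the batch difference among the HFD&NR libraries. The SE is the absolute log2 difference divided by the square root of F. CPM use TMM scaling within each experiment, and RPKM divide them by exon length. Correlations were taken on log2 CPM (prior count 2), among genes with a mean of at least 1 CPM that carry a gene symbol other than a Gm or Rik name. The genes named are the 6 members, up to 4 of smallest p per list and comparison, and the 5 most like Lgals3 and 2 most like each other member. The summed marker lists are given as checks, and the gene of the transgene is not reported here. Python 3.11.15 and matplotlib 3.10.9 drew the plots. Alternatives were DESeq2 1.42.0, other filters and scalings, gene length offsets, no batch term, single batches, a replicate block and each library left out. The members, lists and tests were chosen with earlier results of these data known. For Ctrl_RD replicate 1 and NaV1.5_RD replicate 4 the labels give no number.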

Additional observations from a re-analysis of the deposited data

Results flagged for a closer look

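Of 36 sets of values checked (6 members in 6 groups), of which chance would set apart about 1 in 20, 1 held a library apart from the rest. Lgals4 had 63.2 CPM in HFD&NR replicate 7, and the nearest of the 6 other libraries had 34.0 CPM, a gap that is 0.625 of the group's range. The group mixes batches: replicates 1 to 5, labelled batch 2, had 16.6 to 27.1 CPM, and replicate 7 is 1 of the 2 batch 3 libraries on which the NR test rests.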

How the results depend on the processing

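The count of members past the threshold stayed at 0 under every alternative run for the 2 genotype comparisons, the diet comparison in Ctrl atria and the interaction. In NaV1.5 atria, HFD against RD gave 0 to 1 members when each library was left out; the 1 was Lgals3 without NaV1.5_RD replicate 4. With NR, leaving out each library gave 0. Without the batch term 2 members passed (Lgals1 0.81, Lgals9 0.57 on the log2 scale), and 4 when the batch 2 HFD&NR libraries were set against vehicle (Lgals1 0.95, Lgals9 0.65, Lgals8 0.18, Lgals4 -1.02). These 2 settings do not separate treatment and batch. Replicate numbers were not taken to pair the diet libraries, since same-numbered ones correlated at -0.17 to 0.17 and others at -0.21 to 0.31. With the replicate number as a block, 0 members passed in each diet comparison. Lgals3 then had -0.66 between genotypes on HFD, -0.60 on RD and -0.39 with HFD in NaV1.5 atria. The block runs left out Ctrl_RD replicate 1 and NaV1.5_RD replicate 4, whose labels give no number. No such block was run for NR, whose contrast could not then be estimated. Over all genes the count called moved more: 1 to 27 between genotypes on RD, 2 to 90 on HFD, 4 to 1138 for HFD in NaV1.5 atria and 0 to 19 in Ctrl atria. With NR it was 1 to 66 when a library was left out, 254 with DESeq2, 4392 with no batch term and 9851 with the batch 2 HFD&NR libraries against vehicle, so the members' counts in the last 2 settings stand beside a large share of all genes. Several differences near 0 changed sign, among them Lgals4, Lgals9 and Lgals3bp between genotypes on RD; Lgals3 kept its sign in every diet comparison. The NR results rest on 2 HFD&NR libraries of batch 3, and their wide intervals leave sizeable changes possible.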
